A study of Mus musculus with 6 samples.

Results

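The genes described are the aminoacyl-tRNA synthetases of SCC7, a murine tumour cell line derived from a squamous cell carcinoma. The members are the 38 genes, of 17030 in the deposited table, whose symbols follow the naming pattern of this enzyme family (a letter for the amino acid followed by "ars", with Eprs, Farsa, Farsb and Tarsl2). Of these, 21 encode cytosolic enzymes and 17, with symbols ending in 2, encode mitochondrial ones. Tarsl2, a paralog of the cytosolic threonyl-tRNA synthetase, was counted with the cytosolic genes. The controls (n = 3) were SCC7 cells with no treatment, and the irradiated samples (n = 3) were SCC7 cells that had received radiotherapy, for which the treatment protocol gives 9 Gy. All 6 samples were grown in high-glucose medium with 10% serum. Their time label is day 0, irradiated samples included, and how long after irradiation RNA was taken is not stated. Whether replicates were independent cultures is not stated either, and p-values then measure only sample-to-sample spread, possibly technical.

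Each synthetase joins an amino acid to its matching tRNA, using ATP, and so supplies the ribosome with charged tRNAs. The cytosol and the mitochondrion hold separate sets of these enzymes, and both sets are encoded by nuclear genes. Several cytosolic enzymes are held with scaffold proteins in a multisynthetase complex. Shortage of amino acids leaves tRNAs uncharged, which activates the kinase GCN2 and, through phosphorylation of eIF2alpha, the translation of the transcription factor ATF4. Many cytosolic synthetase genes are known as ATF4 targets, and the tryptophanyl-tRNA synthetase gene Wars is known as an interferon-inducible gene.

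RNA was measured by sequencing of total RNA depleted of ribosomal RNA, and values are FPKM (fragments scaled by transcript length and by the library total). The FPKM values summed to 693961 to 982553 in the controls and to 652691 to 663489 in the irradiated libraries, and the number of reads behind them is unknown. Control 3 stood apart from the other controls. Across genes, its Pearson correlation was 0.956 with control 1 and 0.928 with control 2, against 0.989 between controls 1 and 2 and 0.960 to 0.966 between control 3 and the irradiated libraries. For this reason the results below are also given without control 3 and against each control. The squamous label was checked against 9 markers, of which 8 stayed at or below 1.2 FPKM in every library, Krt5, Krt14 and Epcam among them. The simple keratins Krt8 and Krt18 summed to 698 to 1890 FPKM in controls, lowest in control 3, and 484 to 496 FPKM in irradiated libraries. Of 5 leukocyte markers in the table, 4 stayed at or below 1.2 FPKM in every library, Ptprc among them, while Cd68 measured 4.52, 3.59 and 2.11 FPKM in controls and 5.48, 5.63 and 4.01 FPKM in irradiated libraries. All 3 endothelial markers stayed at or below 1.2 FPKM.

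Cytosolic synthetase transcripts were far more abundant than mitochondrial ones in every library. The 21 cytosolic genes summed to 1601, 1639 and 2555 FPKM in controls 1 to 3 and to 1575, 1598 and 1655 FPKM in irradiated libraries 1 to 3. The 17 mitochondrial genes summed to 180, 185 and 160 FPKM in controls and to 155, 153 and 156 FPKM in irradiated libraries. The order changed when each sum was taken as a share of its library's FPKM total. Cytosolic genes then made up 0.182%, 0.167% and 0.368% in controls 1 to 3 and 0.241% to 0.251% in irradiated libraries. Mitochondrial genes made up 0.0205%, 0.0188% and 0.0231% in controls and 0.0231% to 0.0237% in irradiated libraries. The ratio of the sums was 8.89, 8.87 and 15.9 in controls 1 to 3 and 10.2, 10.4 and 10.6 in irradiated libraries, so that control 3 was the highest library and controls 1 and 2 the lowest. Gars, the glycyl-tRNA synthetase gene that serves both compartments, had the highest mean over the 6 libraries (192 FPKM), followed by Tars (157), Nars (156), Kars (152) and Rars (140). The means of Tars, Nars and Kars lay closer together than the spread of Tars or Nars over controls. The lowest cytosolic genes were Wars (34.4 FPKM) and Tarsl2 (4.26 FPKM). Iars2 (26.1 FPKM) and Tars2 (25.1 FPKM) led the mitochondrial set, and Ears2 and Wars2 closed it at 2.61 and 2.58 FPKM, a gap smaller than the SD of either gene.

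**Figure D1:**
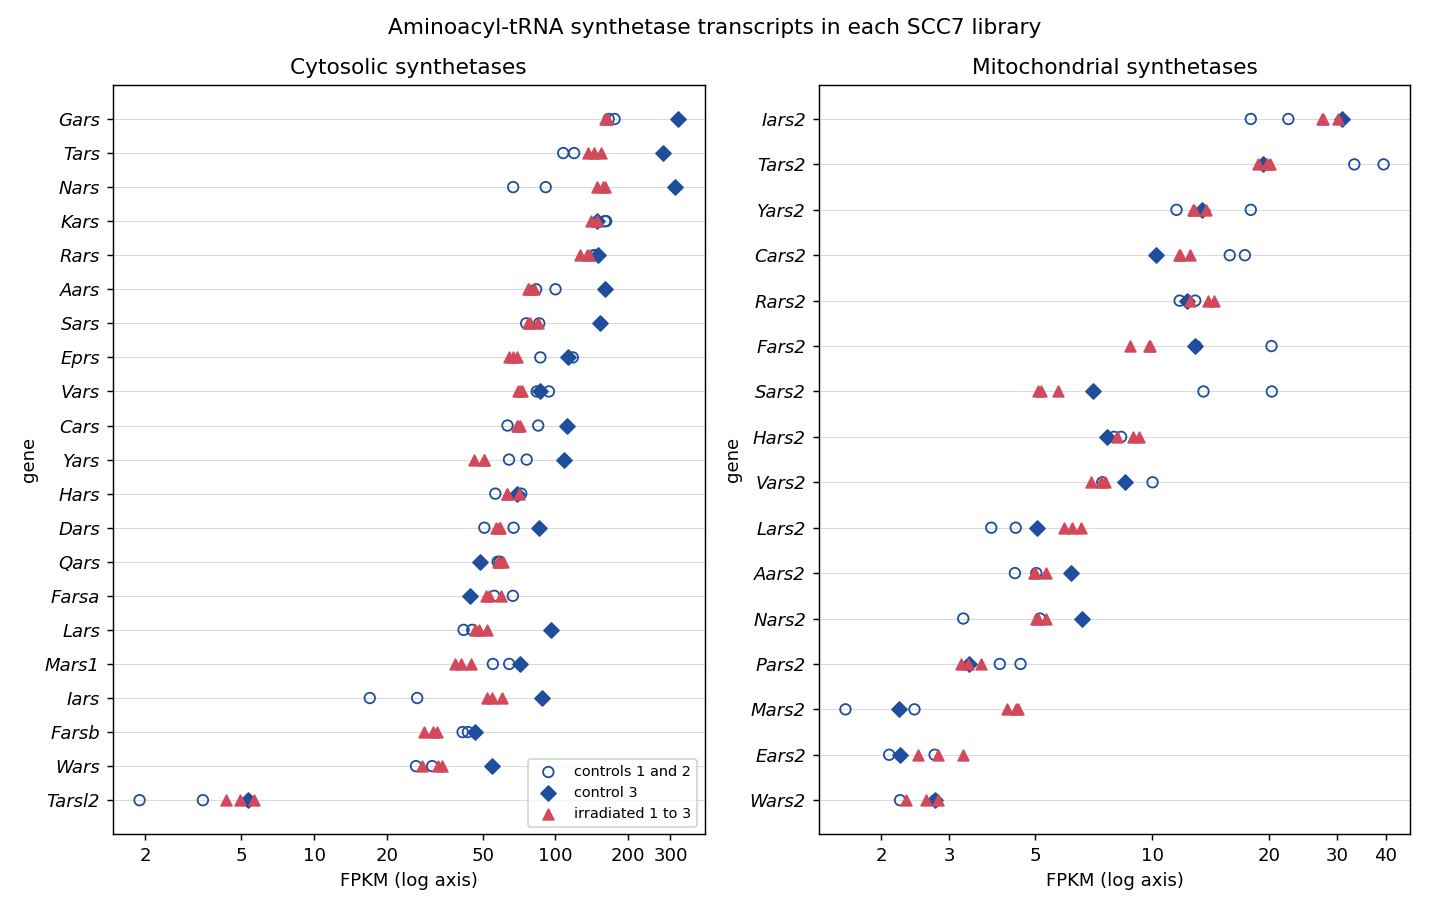
FPKM of the synthetase genes (all members but 1) on a log axis, cytosolic genes on the left and mitochondrial genes on the right, ordered by mean level. Each mark is a library: open circles are controls 1 and 2, filled diamonds control 3, and triangles the 3 irradiated libraries, which sit close together. Control 3 lies far to the right for Nars (312.42 FPKM), Tars (278.92 FPKM) and Gars (321.47 FPKM), while for Mars2 all irradiated libraries lie to the right of all controls.

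The comparison of irradiated with control cells addresses gene expression after radiotherapy, within a study of glutamine inhibition, CD47 blockade and ferroptosis. The mitochondrial methionyl-tRNA synthetase gene Mars2 rose in irradiated cells, and 3 cytosolic genes fell: Eprs, Mars1 and Farsb. The other 34 members did not pass the test. Calls were made with limma on log2(FPKM + 1) at a Benjamini-Hochberg adjusted p below 0.05 over the 11103 genes tested, all 38 members among them. Of all genes tested, 9.24% were called higher and 2.77% lower, beside 1 and 3 of the 38 members. The balance over all genes depended on the scaling, with 1026 genes called higher and 308 lower as deposited, 595 and 643 after TMM scaling (a trimmed mean of the log ratios between libraries), and 645 and 601 after quantile normalization. Every irradiated library lay above every control in 2 members (Mars2 and Lars2) and below every control in 10, against 31.8% and 13.7% of all genes tested. The median log2 fold change was -0.19 for cytosolic and -0.02 for mitochondrial members, against 0.17 for all genes tested. The mitochondrial median moved to -0.42 after quantile normalization and to -0.22 after TMM scaling, while that of all genes moved to -0.02 and -0.04. The cytosolic median moved to -0.13 and -0.43, so which compartment had the lower median depended on the scaling. As deposited, negative fold changes were found in 17 of 21 cytosolic and 10 of 17 mitochondrial genes, against 37.2% of all genes tested. These counts depend on the scaling, since 9 of the 38 signs turned after quantile normalization and 4 after TMM scaling. The share of all genes with a negative fold change was not counted after either. These are bulk samples, in which fewer cells of a type and less RNA per cell cannot be told apart.

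Mars2, which charges the methionine tRNA that both starts and extends mitochondrial proteins, measured 2.44, 1.62 and 2.22 FPKM in controls 1 to 3 and 4.46, 4.23 and 4.52 FPKM in irradiated libraries. The groups did not overlap, and all controls were low, control 3 included. The means were 2.09 ± 0.424 and 4.40 ± 0.153 FPKM (SD, n = 3 each), a difference of 0.81 on the log2(FPKM + 1) scale (SE 0.15, limma adjusted p = 0.0244). The gene (NCBI gene 212679) lies on chromosome 1, from 55237177 to 55240058 in GRCm38.p6. The irradiated mean was higher by 0.65, 1.04 and 0.75 on the log2(FPKM + 1) scale when set against control 1, 2 or 3 alone. The call was lost after quantile normalization (log2 fold change 0.38, adjusted p = 0.103) and without control 1 (0.0753) or any irradiated library (0.152 to 0.174). Across all genes, those called higher numbered 645, 164 and 46 to 85 in these settings, beside 1026 as deposited with all 6 libraries.

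Mars1, the cytosolic counterpart and a member of the multisynthetase complex, moved the other way. It measured 55.08, 64.37 and 71.17 FPKM in controls and 40.64, 44.65 and 38.41 FPKM in irradiated libraries. Every irradiated library lay below every control, with means of 63.5 ± 8.08 and 41.2 ± 3.16 FPKM (log2 fold change -0.61, SE 0.14, limma adjusted p = 0.0416). Eprs joins glutamate and proline to their tRNAs with a single protein and belongs to the same complex. It measured 86.67, 118.15 and 113.22 FPKM in controls and 64.46, 66.62 and 69.44 FPKM in irradiated libraries, again without overlap (-0.65, SE 0.15, limma adjusted p = 0.0439). Farsb encodes the beta subunit of cytosolic phenylalanyl-tRNA synthetase. It measured 43.43, 41.26 and 46.31 FPKM in controls and 31.05, 28.65 and 32.17 FPKM in irradiated libraries (-0.50, SE 0.12, limma adjusted p = 0.0425). All 3 falls kept their sign against each control alone, from -0.37 to -0.81 for Eprs, -0.41 to -0.78 for Mars1 and -0.42 to -0.58 for Farsb, but each call was lost without control 1 (adjusted p = 0.0663, 0.0969 and 0.151 for Eprs, Mars1 and Farsb), without control 2 (0.0875, 0.0821 and 0.0598) and without any irradiated library (0.168 to 0.213). Over all genes, calls fell too, from 1026 higher and 308 lower to 164 and 16 without control 1. They fell to 443 and 105 without control 2, and to 46 to 85 and 10 to 14 without an irradiated library. Eprs and Mars1 also missed the threshold with no filter on low genes (adjusted p = 0.0541 and 0.0512) and after quantile normalization (0.0877 and 0.0594), and Eprs with a filter at 5 FPKM (0.0509).

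The partner subunit of Farsb did not pass the test, although the difference between the subunits was not tested. Farsa, which encodes the alpha subunit, measured 66.67, 55.77 and 44.15 FPKM in controls and 52.87, 51.48 and 59.55 FPKM in irradiated libraries. The groups overlapped (difference -0.01, SE 0.17, limma adjusted p = 0.98, and 0.07 after quantile normalization). Fars2, the mitochondrial phenylalanyl-tRNA synthetase, which works as a single chain, measured 12.97, 20.32 and 12.93 FPKM in controls and 9.87, 9.84 and 8.77 FPKM in irradiated libraries. Here every irradiated library lay below every control, yet the difference missed the threshold (-0.62, SE 0.20, limma adjusted p = 0.0764). Fars2 was called after quantile normalization (-0.86, adjusted p = 0.0488).

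The widest mean difference of the family was in Sars2, the mitochondrial seryl-tRNA synthetase, and it did not pass. It measured 13.57, 20.36 and 7.05 FPKM in controls and 5.71, 5.08 and 5.16 FPKM in irradiated libraries. All irradiated libraries were lower than all controls, but control 3 sat just above them (log2 fold change -1.11, SE 0.34, limma adjusted p = 0.0702, with -1.21, -1.76 and -0.35 against controls 1 to 3). Tars2, for mitochondrial threonine, measured 33.22, 39.53 and 19.31 FPKM in controls and 20.17, 19.73 and 18.78 FPKM in irradiated libraries. Control 3 fell among the irradiated libraries, and the difference of -0.57 (adjusted p = 0.149) was 0.02 against control 3 alone. Among mitochondrial genes with positive fold changes, Lars2, for leucine, measured 4.45, 3.85 and 5.04 FPKM in controls and 6.21, 6.55 and 5.92 FPKM in irradiated libraries. Its groups did not overlap, and it did not pass (0.41, SE 0.14, limma adjusted p = 0.086, and 0.03 after quantile normalization). Iars2, for isoleucine, measured 22.46, 17.97 and 30.96 FPKM in controls and 27.64, 27.43 and 30.18 FPKM in irradiated libraries (0.28, adjusted p = 0.325), with control 3 the highest library. The lowest mitochondrial genes overlapped between groups: Wars2 ranged from 2.24 to 2.76 FPKM in controls and from 2.32 to 2.80 FPKM in irradiated libraries, and Ears2, for glutamate, from 2.10 to 2.75 and from 2.49 to 3.25 FPKM. The fold change of Ears2 was 0.20, and -0.25 after quantile normalization.

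**Figure D2:**
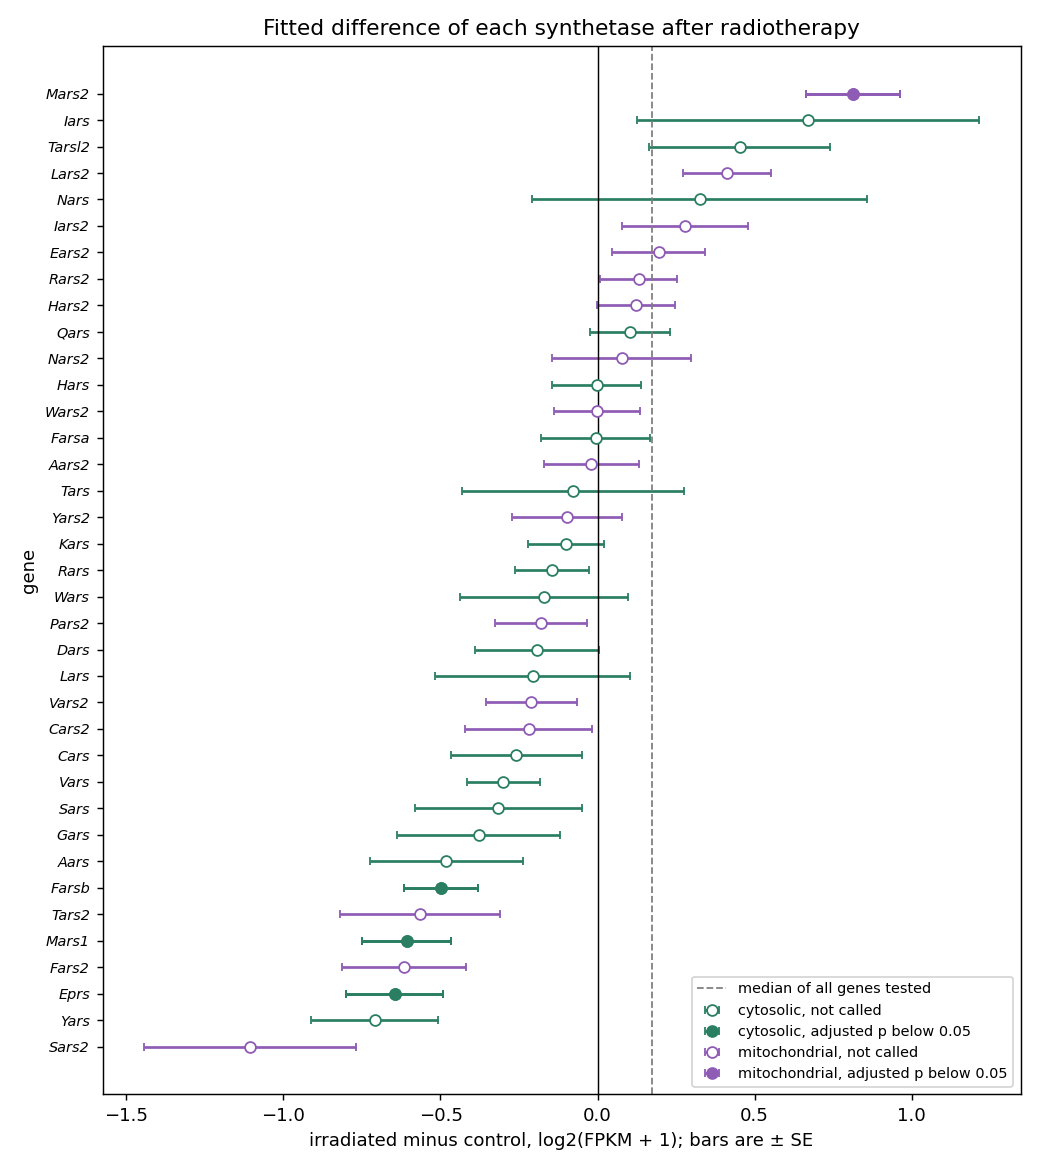
Log2 fold change (irradiated minus control, log2(FPKM + 1)) of the synthetases (all members but 1) with SE bars from limma, ordered from lowest to highest. Filled points passed an adjusted p of 0.05: Mars2 at 0.81, Farsb at -0.50, Mars1 at -0.61 and Eprs at -0.65. The dashed line is the median of all genes tested (0.17). The widest bars belong to Iars and Nars.

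A group of cytosolic synthetases was higher in control 3 than in the other controls. The irradiated libraries lay in between, level with controls 1 and 2, or below all controls. Nars, for asparagine, measured 91.21, 66.85 and 312.42 FPKM in controls 1 to 3 and 149.09, 157.50 and 161.02 FPKM in irradiated libraries. Iars, for isoleucine, measured 26.74, 17.01 and 88.40 FPKM in controls and 54.55, 52.05 and 60.05 FPKM in irradiated libraries. For both genes the irradiated libraries lay above controls 1 and 2 and below control 3. Their fold changes over all controls therefore had large errors (Nars 0.32, SE 0.53, adjusted p = 0.661; Iars 0.67, SE 0.54, adjusted p = 0.378), and the sign depended on the control, at 0.77, 1.21 and -0.999 for Nars and 1.03, 1.65 and -0.66 for Iars against controls 1, 2 and 3. Tars, for threonine, measured 119.62, 107.79 and 278.92 FPKM in controls and 136.17, 144.64 and 155.08 FPKM in irradiated libraries, the same order of libraries (-0.08, adjusted p = 0.878, and 0.11 after quantile normalization). Tarsl2 measured 3.46, 1.89 and 5.34 FPKM in controls and 4.32, 4.92 and 5.65 FPKM in irradiated libraries, with control 3 in the midst of the irradiated libraries (0.45, SE 0.29, adjusted p = 0.269). Gars measured 166.38, 175.99 and 321.47 FPKM in controls and 163.29, 160.13 and 163.44 FPKM in irradiated libraries, where every irradiated library lay below every control, though only just below control 1. Yars, for tyrosine, measured 64.26, 76.05 and 108.16 FPKM in controls and 50.67, 46.12 and 50.57 FPKM in irradiated libraries. It was lower than every control in all irradiated libraries and had the most negative cytosolic fold change (-0.71, SE 0.20), which missed the threshold (limma adjusted p = 0.0618) and passed after TMM scaling (-0.95, limma adjusted p = 0.028).

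The genes that stood high in control 3 were mainly those widely described as ATF4 targets. The list of such synthetases held 12 genes (Aars, Cars, Eprs, Gars, Iars, Lars, Mars1, Nars, Sars, Tars, Wars and Yars). Control 3 was the highest of the 6 libraries for 11 of these 12, Eprs being the exception, against 3 of the other 9 cytosolic genes, 4 of 17 mitochondrial genes and 19.4% of all genes tested. The difference between control 3 and the mean of controls 1 and 2, on the log2(FPKM + 1) scale, had a median of 0.91 over the 12 genes, from 0.16 in Eprs to 2.00 in Iars. The median was 0.05 for the other cytosolic genes and -0.02 for the mitochondrial genes, beside 0.15 for all genes tested. A difference of at least 1 was found for Iars (2.00), Nars (1.99), Tars (1.29) and Lars (1.12), and in 8.96% of all genes tested. A difference of -1 or less was found in 1 member, Sars2 (-1.13), and in 4.69% of all genes tested. After TMM scaling the median of the 12 genes was 0.75 and control 3 was highest for 10 of them, and after quantile normalization 1.06 and 12. With 1 library set against 2, this difference has no test.

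Set against the mean of controls 1 and 2, the irradiated cells had a median difference of -0.03 over the 12 listed genes (-0.33 after TMM scaling and 0.16 after quantile normalization), while against control 3 all 12 were lower under each scaling, as were 41.6% of all genes as deposited, 56.3% after TMM scaling and 51.3% after quantile normalization. Without control 3, limma called 7 members higher (Iars, Iars2, Lars2, Mars2, Nars, Tars and Tarsl2) and 9 lower (Cars2, Eprs, Fars2, Farsb, Mars1, Sars2, Tars2, Vars and Yars), where 45.8% of all genes were called higher and 23.3% lower. With control 3 as the only control, 3 members were called higher (Farsa, Mars2 and Qars) and 17 lower, against 22.8% and 14.4% of all genes, and here the spread comes from the irradiated libraries, so these calls are a description. Of the members called without control 3, Mars2 and Lars2 were also higher against control 3 alone (0.75 and 0.26). Eprs, Farsb, Mars1, Fars2, Sars2, Vars and Yars were also lower (-0.28 to -1.12). Iars, Nars, Tars, Iars2 and Tarsl2 turned lower (-0.094 to -0.999), and Cars2 and Tars2 turned higher (0.21 and 0.017). The settings share the irradiated libraries, and the share of all genes that kept their direction was not counted.

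**Figure D3:**
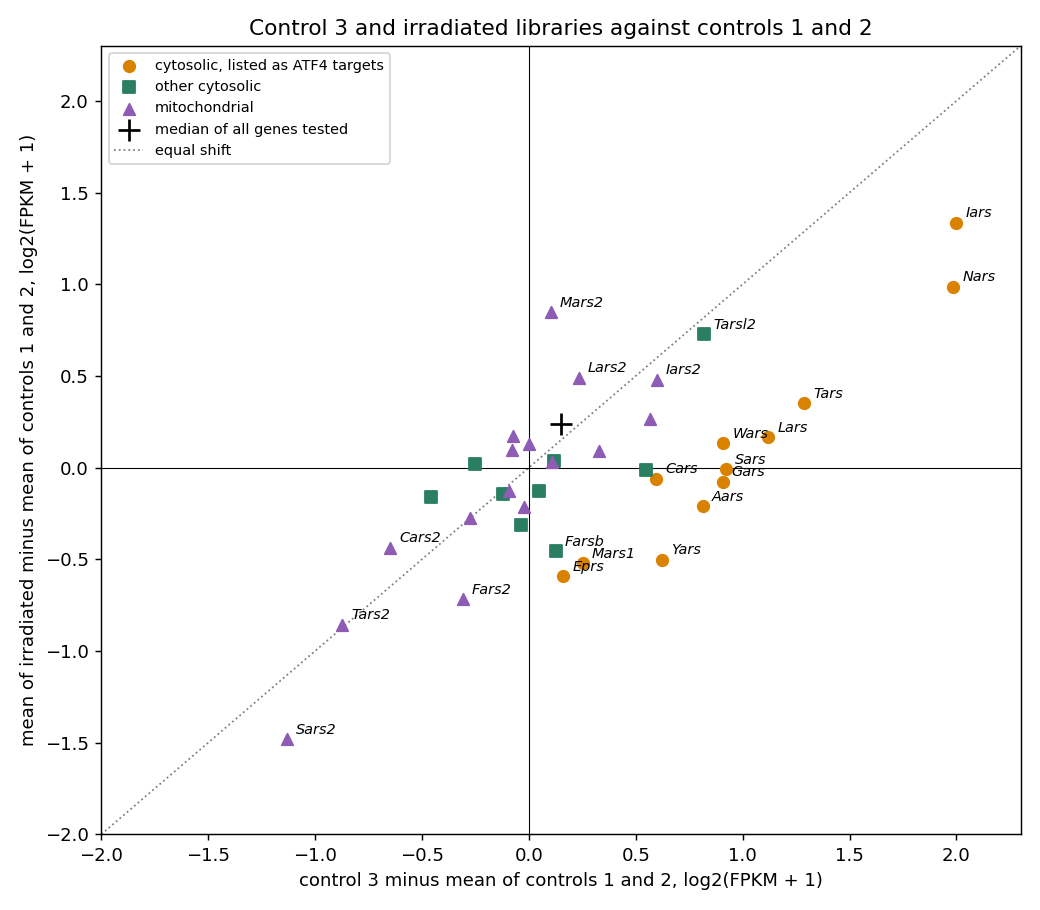
Each synthetase (all members but 1) is plotted by the difference of control 3 from the mean of controls 1 and 2 (horizontal) and of the irradiated mean from the same controls (vertical), both on the log2(FPKM + 1) scale. Circles are the 12 cytosolic genes listed as ATF4 targets, squares the other cytosolic genes and triangles the mitochondrial genes. All circles lie right of 0 and below the dotted line of equal shift, with Iars at 2.00 and 1.34. Sars2 and Tars2 lie at the lower left (-1.13 and -0.87 on the horizontal axis), and Mars2 stands alone near the vertical axis at 0.10 and 0.85.

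Control 3 was also the highest library for 17 of the 21 tested genes of the integrated stress response, the pathway that runs through ATF4 (22 were listed). The share over all genes tested was 19.4%. The place of the irradiated libraries differed among these genes: they lay above all controls for 3 and below all controls for 4. Over all genes tested these shares were 31.8% and 13.7%, so neither count sets this list apart as a group that moved. Atf4 itself measured 353.21, 347.05 and 685.70 FPKM in controls and 221.86, 227.71 and 237.12 FPKM in irradiated libraries, so that the irradiated libraries were the lowest (log2 fold change -0.93, SE 0.28, limma adjusted p = 0.0661). Asns, which makes asparagine with nitrogen from glutamine, measured 48.76, 40.77 and 235.69 FPKM in controls and 82.75, 90.76 and 88.94 FPKM in irradiated libraries. Chac1, which degrades glutathione, measured 10.32, 9.08 and 140.75 FPKM in controls and 29.19, 37.21 and 27.53 FPKM in irradiated libraries. Like Nars and Iars, Asns and Chac1 had irradiated values between controls 1 and 2 and control 3. Among the 21 tested genes limma called 1 higher and 0 lower, beside 9.24% and 2.77% of all genes tested. The called gene was Eif2ak2, the interferon-inducible kinase PKR (1.82, SE 0.15, limma adjusted p = 0.00179). For Eif2ak2 control 3 did not stand apart, at 13.21 FPKM beside 13.18 and 15.03. Control 3 also had the lowest keratin sum of the controls. Of the 5 mesenchymal markers, the filament gene Vim measured 5292.96, 5054.21 and 2410.42 FPKM in controls 1 to 3 and 2442.74 to 2628.53 FPKM in irradiated libraries. The others were highest in control 3 among the controls, with Pdgfrb at 3.33, 2.45 and 13.89 FPKM, Pdgfra at 26.80, 19.69 and 35.31 FPKM, Col3a1 at 41.14, 33.39 and 45.19 FPKM and Col1a1, nearly level, at 19.34, 17.85 and 19.38 FPKM in controls 1 to 3. The part of these differences in the synthetase pattern was not tested.

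The promoters of the listed synthetases were searched for the core letters of the C/EBP-ATF composite element, through which ATF4 is known to act, because 11 of the 12 were highest in control 3. RefSeq promoters of GRCm38.p6, from 250 bases before to 50 bases after the start site, were found for 28 of the 38 genes, and Cars, Lars, Nars and Wars of the ATF4 list were among the 10 with no entry. The letters TGATGNAA, read on both strands, occurred in 5 of the 28 genes: Aars, Gars, Iars, Tars and Yars. Of the 12 genes on the list, 8 had a promoter entry and these 5 held the letters. The letters occurred in 3.97% of all 32851 promoters of the same length, counted by promoter and not by gene. The 12 genes were listed because they are described as ATF4 targets, so the letters in their promoters are no separate evidence. Any link of these sites to the control 3 pattern was not tested. The site nearest the start of each gene is printed with 10 bases on either side, on the strand that reads TGATGNAA, with the matching letters in capitals.
Yars, chr4:129189896-129189923, plus strand: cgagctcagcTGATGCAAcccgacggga
Gars, chr6:55037961-55037988, minus strand: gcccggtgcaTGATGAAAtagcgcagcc
Aars, chr8:111033841-111033868, minus strand: cagagcgctcTGATGAAAagtgacccgc
Iars, chr13:49682127-49682154, minus strand: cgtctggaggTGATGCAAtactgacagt
Tars, chr15:11399656-11399683, plus strand: gctaaccagcTGATGCAAcgggactcct
The site ended 8 bases before the start site in Tars and 23 bases before it in Gars, and lay within 17 bases after it in Yars, Iars and Aars. These distances are from the start site of the promoter table, which for Yars and Aars lies 169 and 6064 bases downstream of the start of the RefSeq gene. The windows of Yars and Aars therefore lie inside the annotated genes. The variable base was C in Yars, Iars and Tars. The 250 bases before the start sites of Tars and Gars, the most abundant members with a site, are given on the strand of the gene, where the same site reads in reverse complement and stands in capitals.
Tars, chr15:11399659-11399908, minus strand: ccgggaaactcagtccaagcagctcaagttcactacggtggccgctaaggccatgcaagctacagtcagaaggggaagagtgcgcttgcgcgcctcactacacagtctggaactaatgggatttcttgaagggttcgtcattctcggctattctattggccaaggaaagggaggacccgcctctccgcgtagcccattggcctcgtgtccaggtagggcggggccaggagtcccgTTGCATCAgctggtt
Gars, chr6:55037751-55038000, plus strand: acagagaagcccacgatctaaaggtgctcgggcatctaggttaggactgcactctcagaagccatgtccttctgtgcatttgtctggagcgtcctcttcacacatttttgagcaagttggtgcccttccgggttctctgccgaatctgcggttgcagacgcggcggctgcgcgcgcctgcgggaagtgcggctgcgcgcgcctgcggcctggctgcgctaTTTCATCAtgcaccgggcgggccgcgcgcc
A match of letters is a description of these windows and does not show that a factor binds there.

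Among the 8 enzymes of the multisynthetase complex, Eprs and Mars1 fell and the other 6 (Iars, Lars, Qars, Kars, Rars and Dars) did not pass. The median over the 8 enzymes was -0.17 on the log2 scale, beside -0.26 for the 13 cytosolic genes outside the complex. Kars, which also supplies the mitochondrial lysyl-tRNA synthetase, was among the steadiest genes as deposited, at 160.62, 162.43 and 148.24 FPKM in controls and 149.18, 140.92 and 149.08 FPKM in irradiated libraries (-0.10, SE 0.12, limma adjusted p = 0.546). Its fold change was 0.12 after quantile normalization and -0.34 after TMM scaling. Qars, for glutamine, measured 57.66, 58.78 and 48.68 FPKM in controls and 60.88, 58.24 and 57.86 FPKM in irradiated libraries. Control 3 was the lowest library for Qars, the opposite of its place for Iars and Lars, and the difference of 0.10 did not pass (adjusted p = 0.556) and was -0.13 after TMM scaling. Of the 3 scaffold genes, Aimp1 measured 139.96, 138.53 and 115.04 FPKM in controls and 93.15, 87.22 and 96.11 FPKM in irradiated libraries. All irradiated libraries lay below all controls, and the difference narrowly missed the threshold (-0.50, SE 0.14, limma adjusted p = 0.0549). Aimp2 and Eef1e1 had log2 fold changes of -0.12 and 0.24 and did not pass. By the structure of the catalytic domain, the medians of cytosolic genes were -0.21 for the 9 class I and -0.10 for the 11 class II enzymes. In each class 1 gene was called lower, beside 2.77% of all genes tested. Eprs, which joins an enzyme of either class, was left out of both.

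Wars, the interferon-inducible member, did not pass the test in libraries where interferon-stimulated genes were high. All 10 interferon reference genes listed, Irf7, Isg15, Usp18 and Ifit1 among them, rose in irradiated cells, with a median log2 fold change of 4.44. Wars measured 26.45, 30.85 and 54.57 FPKM in controls and 28.08, 33.85 and 32.70 FPKM in irradiated libraries. Irradiated libraries lay at the level of controls 1 and 2, below control 3 (log2 fold change -0.17, SE 0.27, limma adjusted p = 0.648), and without control 3 the difference was 0.13 (adjusted p = 0.348).

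For pairs of enzymes that serve the same amino acid in the cytosol and the mitochondrion, the ratio within each library was compared between groups. Of 18 pairs, every irradiated library lay below every control in 6, which were Aars to Aars2, Lars to Lars2, Mars1 to Mars2, Rars to Rars2, Eprs to Ears2 and Eprs to Pars2, and above every control in 0. With 3 samples against 3 the two-sided exact permutation test cannot give less than 0.1, and these 6 pairs reached it (0.3 after adjustment over the 18 pairs). Pair ratios were not taken after quantile normalization. The fold changes of single genes under it were -0.33 for Aars, -0.42 for Aars2, 0.076 for Rars and -0.10 for Rars2. Eprs had -0.49 and Pars2 -0.61. By these values those pairs shifted upward, while Lars to Lars2, Mars1 to Mars2 and Eprs to Ears2 kept their direction. The pair for methionine showed the largest shift. This pair joins Mars1 (-0.61) and Mars2 (0.81), both called above from the same values, so its shift is no separate result. Its log2 ratio, from log2(FPKM + 1), was 4.03, 4.64 and 4.49 in controls and 2.93, 3.13 and 2.84 in irradiated libraries. The mean moved from 4.38 ± 0.32 to 2.96 ± 0.15 (SD, n = 3 each), a difference of -1.42, and all controls, control 3 included, stood above all irradiated libraries. For glutamate, Eprs to Ears2 moved from 4.98 ± 0.38 to 4.14 ± 0.09. For serine, Sars to Sars2 was 2.40, 2.02 and 4.26 in controls and 3.54, 3.82 and 3.69 in irradiated libraries, so the irradiated libraries lay between the controls. Threonine (Tars to Tars2), asparagine (Nars to Nars2), isoleucine (Iars to Iars2) and cysteine (Cars to Cars2) showed this same order. The irradiated mean was below control 3 in 17 of the 18 pairs, the exception being Farsa to Fars2. This count includes pairs of the 12 ATF4-listed synthetases, all of which were lower in irradiated cells than in control 3. How often pairs of other genes show either order was not counted. Both pairs with Eprs share that gene, as both phenylalanine pairs share Fars2.

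**Figure D4:**
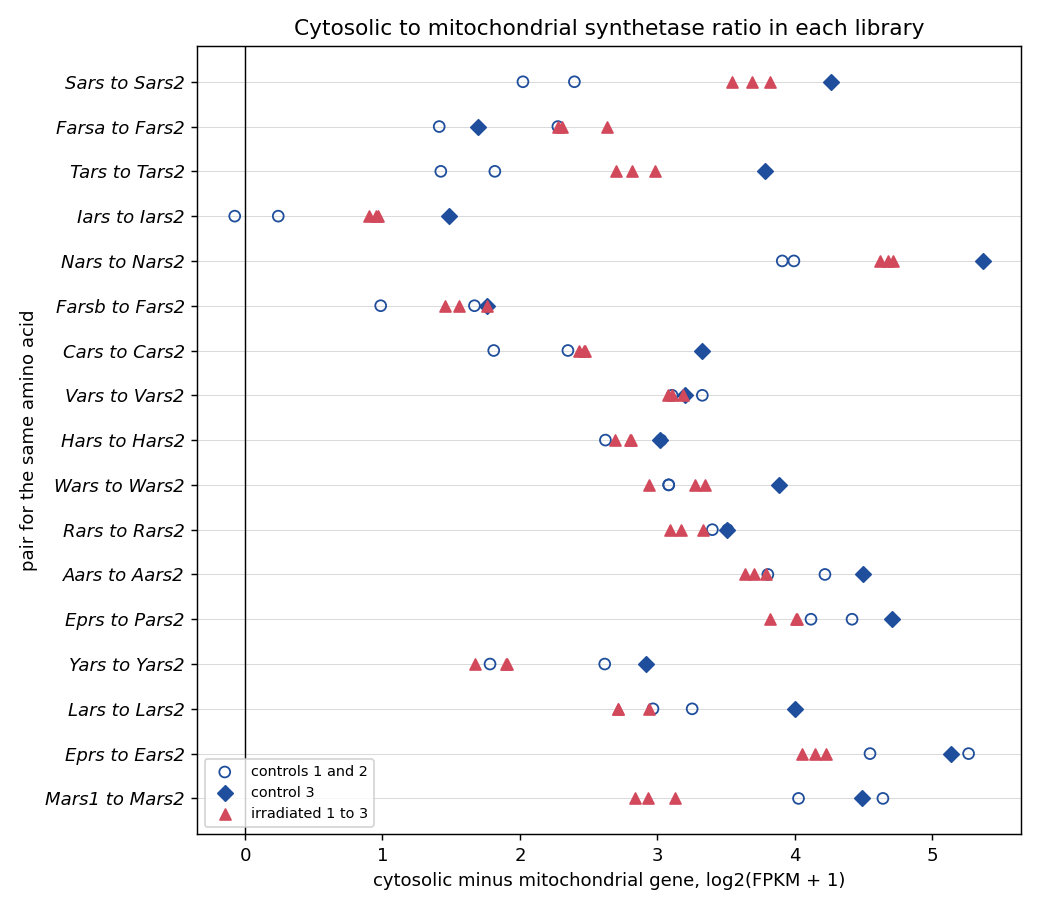
Difference in log2(FPKM + 1) between the cytosolic and the mitochondrial gene for the same amino acid (all pairs but 1), 1 mark per library, ordered by the mean shift. The pair Mars1 to Mars2 at the bottom has all triangles (2.84 to 3.13) left of all control marks (4.03 to 4.64). In the pairs of Sars, Tars, Iars, Nars and Cars the triangles lie between controls 1 and 2 and control 3.

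Genes that work with the synthetases were set beside all genes tested, of which 9.24% were called higher, 2.77% were called lower and 38.3% had an unadjusted p below 0.05. Of 16 synthetase partners and tRNA quality-control genes, limma called 0 higher and 1 lower, with 4 at an unadjusted p below 0.05. The called gene was Ptrh2, a peptidyl-tRNA hydrolase of mitochondria, which measured 18.97, 22.75 and 13.22 FPKM in controls and 9.22, 9.24 and 10.10 FPKM in irradiated libraries (-0.85, SE 0.20, limma adjusted p = 0.0449). Its groups did not overlap, and the call was lost with no filter (adjusted p = 0.059), with a filter at 5 FPKM (0.0526) and when control 1 (0.165), control 2 (0.0832) or an irradiated library (0.168 to 0.208) was left out. In these settings, in the same order, 233, 221, 16, 105 and 10 to 14 of all genes were called lower, beside 308. Xpot, which exports tRNAs from the nucleus, had the control 3 pattern, at 22.68, 17.00 and 50.25 FPKM in controls and 27.95, 26.62 and 27.32 FPKM in irradiated libraries. Aarsd1, which removes serine from mischarged alanine tRNA, had the reverse order, with 70.99 and 91.09 FPKM in controls 1 and 2, 37.30 FPKM in control 3 and 33.03, 33.34 and 32.83 FPKM in irradiated libraries.

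Of 16 mitochondrial charging and translation factors limma called 0, with 3 at an unadjusted p below 0.05. Tsfm, the exchange factor of mitochondrial elongation factor Tu, measured 50.56, 66.12 and 33.32 FPKM in controls and 23.39, 26.24 and 27.25 FPKM in irradiated libraries (-0.89, SE 0.25, limma adjusted p = 0.059). Gfm1, the mitochondrial elongation factor G, measured 33.32, 24.67 and 28.15 FPKM in controls and 39.42, 39.37 and 41.77 FPKM in irradiated libraries (0.48, SE 0.14, limma adjusted p = 0.0651). Neither gene overlapped between groups, and they differed in direction. Gatb, Gatc and Qrsl1, whose products convert mischarged glutamate to glutamine on the mitochondrial tRNA in place of a mitochondrial Qars, had log2 fold changes of 0.04, 0.03 and -0.13. Of 6 cytosolic elongation factors limma called 0, with 2 at an unadjusted p below 0.05. Eef1b2, an exchange factor of eEF1A, measured 338.14, 381.86 and 240.95 FPKM in controls and 175.56, 179.84 and 197.71 FPKM in irradiated libraries, without overlap, and stood at the threshold (-0.77, SE 0.20, limma adjusted p = 0.0506). Eef1d, another subunit of this exchange factor, had 409 FPKM in control 3, beside 869 and 1248 FPKM in controls 1 and 2 and 363 to 402 FPKM in irradiated libraries (-0.98, SE 0.39, limma adjusted p = 0.116).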

How the data were processed

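The authors deposited FPKM per gene, per the file headers, with 2 decimals. HISAT and GRCm38.p6 are named in the submitters' processing notes, and for the counting step no tool or annotation is given. FPKM holds no read number, so no count model was used. A gene entered the test if 3 or more samples reached 1 FPKM. The test on log2(FPKM + 1) used limma 3.58.1 under R 4.3.3 (group term only, eBayes with trend and robust options, Benjamini-Hochberg adjustment). The fit assumes equal spread, although the median SD of a gene was 0.30 among controls and 0.08 among irradiated libraries, so its p-values are approximate. The log2(FPKM + 1) scale understates changes of low genes such as Mars2.

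The members, gene lists and tests were chosen with earlier results of these data known. Per-sample values are given for members that passed, the 3 largest and 3 smallest fold changes and the 2 highest and lowest levels of each compartment, and Wars, Wars2, Farsa, Farsb, Fars2, Gars, Kars, Qars and Eprs. In related lists they are given for genes that passed and the 2 smallest p of each. The markers given by library, Aimp2, Eef1e1, Asns, Chac1, Xpot, Aarsd1, Gatb, Gatc and Qrsl1, the search letters and the promoters shown were chosen after values were seen. Gene positions are 1-based, from RefSeq of GRCm38.p6. On simulated data with independent genes, 45% of genes changed 2-fold and 87% of those changed 4-fold were recovered, with 10 unchanged genes called among 10944. The simulation gave both groups the same spread for a gene, unlike these data, so its rates need not hold here. Changed genes were drawn only from those with a mean log2(FPKM + 1) above 3, so recovery of lower genes such as Mars2 was not measured. The values of 1 mitochondrial member, which enters the counts and medians, are not reported here.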

Additional observations from a re-analysis of the deposited data

How the results depend on the processing

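The counts of called synthetases moved with the scaling and the libraries. The median of all genes moved from 0.17 to -0.02 after quantile normalization and to -0.04 after TMM scaling. Of all genes, 1026 were called higher and 308 lower. With 1 library left out these were 46 to 5067 and 10 to 2571, the most without control 3. Synthetases called higher were 1, and 0 after quantile normalization, with the filter at 5 FPKM (which leaves out Mars2) and with the sample number as a replicate block, 3 with control 3 as the only control, and 0 to 7 when 1 library was left out. Those called lower were 3, and 1 with no filter, 0 with the block, 17 with control 3 as the only control, and 0 to 9 when 1 library was left out, where the high values came without control 3. The sample numbers do not pair the libraries (deviations of same-numbered samples correlated at -0.115, 0.0203 and -0.159), so the block result is given for completeness.

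The cytosolic median of -0.19 was -0.13 after quantile normalization and -0.43 after TMM scaling. It was -0.66 with control 3 as the only control and -0.34 to -0.06 with 1 library left out. The mitochondrial median of -0.02 was -0.42 after quantile normalization, -0.22 after TMM scaling and -0.11 to 0.03 with 1 library left out. Of the 38 fold changes, 9 turned sign with control 3 as the only control, 9 after quantile normalization and 4 after TMM scaling, none of them of genes called over all 6 libraries. These were Nars -0.999, Iars -0.66, Iars2 -0.12, Tarsl2 -0.094, Tars2 0.017, Farsa 0.30, Cars2 0.21, Nars2 -0.30 and Pars2 0.0044 with control 3 as the only control, Tars 0.11, Ears2 -0.25, Farsa 0.072, Kars 0.12, Hars 0.093, Hars2 -0.20, Nars2 -0.32, Rars 0.076 and Rars2 -0.10 after quantile normalization, and Qars -0.13, Hars2 -0.094, Nars2 -0.12 and Rars2 -0.093 after TMM scaling. With 1 library left out, 1 to 7 turned sign, and among the genes with values per sample the fold changes that did ranged from -0.12 to 0.99 for Nars, -0.37 to 0.13 for Wars, -0.33 to 0.35 for Tars, -0.074 to 0.050 for Wars2 and -0.16 to 0.13 for Farsa.

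Partners called lower (1) were 4 after quantile normalization or TMM scaling, 0 with no filter, the filter at 5 FPKM or the block, 5 with control 3 as the only control and 0 to 8 with 1 library left out, where those called higher were 0 to 3. Mitochondrial factors called higher and lower were 2 and 1 with control 3 as the only control, and 0 to 5 and 0 to 4 with 1 library left out. Elongation factors called lower were 2 after quantile normalization, 1 after TMM scaling or without trend and robust options, 4 with control 3 as the only control and 0 to 3 with 1 library left out, where those called higher were 0 to 1. Stress response genes called higher were 2 and lower 15 with control 3 as the only control, 2 were lower after TMM scaling, and they were 1 to 15 higher and 0 to 4 lower with 1 library left out. Interferon genes called higher were 6 to 10 with 1 library left out. Pairs with all irradiated libraries above all controls were 1 with a pseudocount of 0.1 or control 3 as the only control and 0 to 5 with 1 library left out, and those below were 17 with control 3 as the only control and 6 to 8 with 1 library left out.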
